A study of Mus musculus with 17 samples.

Results

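DRGs that had lost *Mtor* from their sensory neurons were compared with control DRGs 7 days after nerve injury, across every gene with a mean of at least 1 FPKM (fragments per kilobase of transcript, scaled to the mapped fragments of a library) in either group, and not only across the genes that injury induces. This took in 13318 of the 19152 genes of the table, and 9 of the 17 libraries. The libraries came from 4 Adv-Cre::Mtorfl/fl mice (*Mtor-cKO*), whose floxed *Mtor* is recombined by a Cre that the regulatory sequence of advillin (*Avil*) drives in peripheral sensory neurons, and from 5 Mtorfl/fl mice, which carry the same floxed alleles without Cre. These mice were C57BL/6 and had bilateral spared nerve injury (SNI), in which branches of the sciatic nerve are tied and cut. Each library pooled ganglia L4 and L5 from the left and right of 1 mouse, so the mouse was the replicate. A further 4 *Mtor-cKO* and 4 *Mtorfl/fl* libraries, taken at baseline without injury, show the same genotypes before SNI. Advillin is used to restrict Cre largely to sensory neurons, recombination in other ganglion cells was not measured here, and the labels do not give the sex of each mouse.

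mTOR is a kinase that works in a pair of complexes, mTORC1 and mTORC2, and couples nutrient and growth factor signals to growth. mTORC1 phosphorylates the S6 kinases and the 4E-BPs to drive protein synthesis, promotes sterol, nucleotide and polyamine synthesis, and holds back autophagy and the making of lysosomes. In sensory neurons it is known for its part in axon regrowth and in pain after nerve injury.

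The 9 libraries held between 18839219 and 21002258 expected counts. Pan-neuronal genes were abundant in all of them, with a sum over 12 genes of 5556 to 6178 FPKM in *Mtor-cKO* and 6247 to 7646 FPKM in *Mtorfl/fl*, and with none of the 12 at 0, as were satellite glia markers (2744 to 3132 FPKM in *Mtor-cKO*, against 2213 to 4191 FPKM in *Mtorfl/fl*). Several libraries stood apart. *Mtor-cKO* replicate 1 held skeletal muscle transcripts (a sum of 512 FPKM over 12 markers, against 31.6 to 71.4 FPKM in the other *Mtor-cKO* libraries and 3.59 to 38.2 FPKM in *Mtorfl/fl*), and *Mtor-cKO* replicate 4 held the cartilage collagen *Col2a1* at 18.3 FPKM, against 0.62 FPKM or less in the other 8 libraries. *Mtorfl/fl* replicates 1 and 2 had the lowest sums of macrophage (192 and 203 FPKM) and fibroblast markers (289.8 and 309 FPKM), and *Mtorfl/fl* replicate 3 was the highest of its group in injury-induced genes. The genotypes were therefore also compared without *Mtor-cKO* replicates 1 and 4 and without *Mtorfl/fl* replicates 1 and 2, the doubted pairs, as alternatives chosen after the data had been seen, and a count of list members called at day 7 that moved by more than 1.5 times in either fit is given with its value there. The labels give no batch or date for these libraries.

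**Figure D1:**
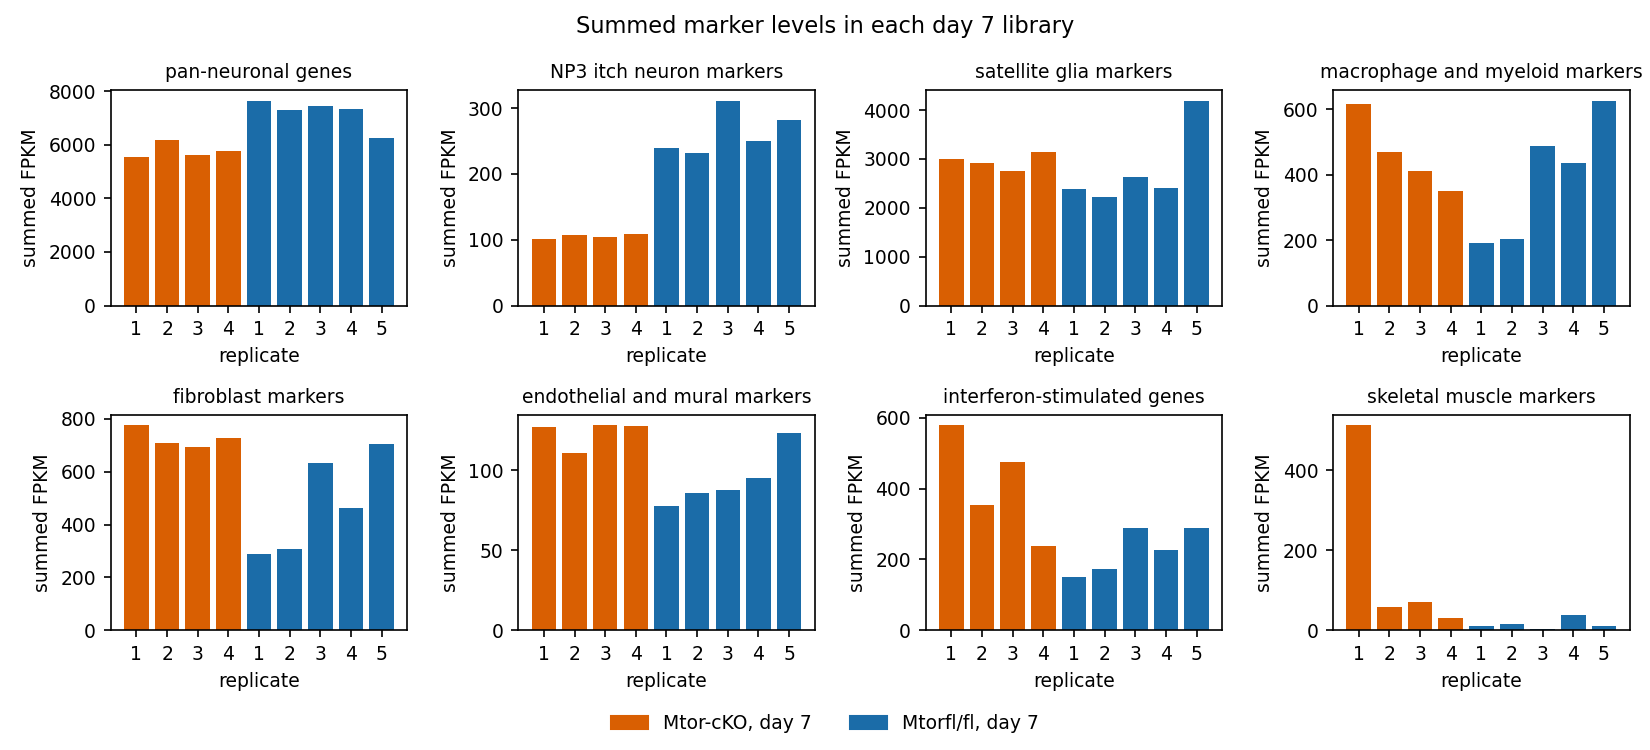
Summed FPKM (vertical axes, linear, from 0) of 8 marker lists in each day 7 library, with *Mtor-cKO* replicates 1 to 4 in orange and *Mtorfl/fl* replicates 1 to 5 in blue. Skeletal muscle markers reach 512 FPKM in *Mtor-cKO* replicate 1, and the NP3 itch neuron markers lie between 100.5 and 108 FPKM in *Mtor-cKO*, below the 231 to 311 FPKM of *Mtorfl/fl*.

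*Mtor* itself ran from 3.44 to 5.83 FPKM in *Mtor-cKO*, against 5.96 to 14.4 FPKM in *Mtorfl/fl*, with no overlap (log2 fold change -0.91, SE 0.27, edgeR adjusted p = 0.0226 from the quasi-likelihood test). Reads from exons that Cre does not remove and from non-neuronal cells count toward this gene. The adjusted p of *Mtor* rose to as much as 0.202 when single libraries (*Mtor-cKO* replicate 1, *Mtorfl/fl* replicate 1 or 2) or either doubted pair was left out.

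At day 7, 161 genes were called lower and 152 higher in *Mtor-cKO* ganglia, with more than a 2-fold difference and an adjusted p under 0.05, which is 1.21% and 1.14% of the genes tested. Without the fold limit 1742 genes were lower and 1717 higher (13.1% and 12.9%), and the median log2 fold change of all genes tested was 0.0336. These are the shares against which the counts of list members below, which use the adjusted p alone, are to be read. The lists were chosen with earlier results of these data known, so counts of list members only describe those members. The whole counts also fell in the smaller fits, to 853 lower and 765 higher without *Mtor-cKO* replicates 1 and 4 and to 1144 lower and 1149 higher without *Mtorfl/fl* replicates 1 and 2. The genes called lower had a median log2 fold change of -1.38 and those called higher 1.33. Every *Mtor-cKO* library lay below every *Mtorfl/fl* library in 154 of the 161 genes called lower (11% of all genes tested did), and above in 122 of the 152 called higher (16.4% of all). The call uses the same 9 libraries and favours such genes, so these counts only describe the called genes. The filter of 1 FPKM also favours them, since 69 of the 161 passed it through the *Mtorfl/fl* group alone (*Il31ra*, *Htr1a*, *Gpr119*, *Lipn*, *Anxa10*, *Taf7l*, *Scin* and *Fam26d* among the genes described below), and 55 of the 152 through the *Mtor-cKO* group alone (*Xylb*, *Zbtb16*, *Pck1*, *Plin4*, *Sfrp2*, *Cnn1*, *Clec3a* and most muscle genes below). Without *Mtor-cKO* replicates 1 and 4 the counts were 143 lower and 83 higher, and 133 and 68 of the genes first called were among them. Without *Mtorfl/fl* replicates 1 and 2 they were 146 lower and 85 higher, with 131 and 64 of the first calls among them. Leaving out *Mtor-cKO* replicate 1 alone gave 91 genes called higher, 88 of them among the 152.

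Many of the genes called lower were already lower in *Mtor-cKO* mice before injury, in libraries that this contrast does not share. Baseline libraries also stood apart. *Mtor-cKO* baseline replicate 2 held 625.6 FPKM of skeletal muscle markers, against 2.8 to 86.2 FPKM in the other *Mtor-cKO* baseline libraries. Macrophage markers summed to 94.7 and 93.1 FPKM in *Mtorfl/fl* baseline replicates 1 and 2, against 359.1 and 445.2 FPKM in replicates 3 and 4. The same-numbered *Mtorfl/fl* libraries were also the lowest at day 7, and handling shared between the times was not tested. No alternative left out a baseline library. At baseline 146 genes were called lower and 58 higher (1.1% and 0.436% of the same genes). Of the 161 genes called lower at day 7, 91 were among the 146, which is 56.5% of the day 7 list and 62.3% of the baseline list. Of the 152 called higher, 34 were among the 58 (22.4% and 58.6%). At the adjusted p alone, which 7.85% of all genes passed downward and 7.91% upward at baseline, 128 of the 161 and 46 of the 152 passed in the same direction, and none passed in the other. Of the 106 genes called higher that did not pass at baseline, 29 were called in every fit that left out 1 library, and of the 46 that did pass, 39 were. Whether the genotype effect at day 7 differed from that at baseline was tested by the interaction of injury and genotype, which 11 genes passed (0.0826%). The difference was positive for 9 of the 11 and negative for 2. Only *Lce6a*, which encodes a late cornified envelope protein, was both in this set and called at day 7, and it lost the interaction call in 10 of 16 alternatives. No gene called lower at day 7 passed the interaction test in edgeR, and at an unadjusted p under 0.05 the counts were 41 of the 161 and 65 of the 152, beside 13% of all genes. The interaction and the calls use the same day 7 libraries, so nothing is read from these counts. The count rested on single libraries: it was 0 without *Mtor-cKO* replicates 1 and 4 (in edgeR, with 1068 genes at an unadjusted p under 0.05), 1 without *Mtorfl/fl* replicates 1 and 2, 138 without *Mtorfl/fl* replicate 5, 22 without *Mtorfl/fl* replicate 3, and 1 to 7 without any one of *Mtor-cKO* replicates 1 to 4 or *Mtorfl/fl* replicates 1 and 2. DESeq2 gave 257 genes with an interaction, 5 of the 161 and 7 of the 152 among them.

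**Figure D2:**
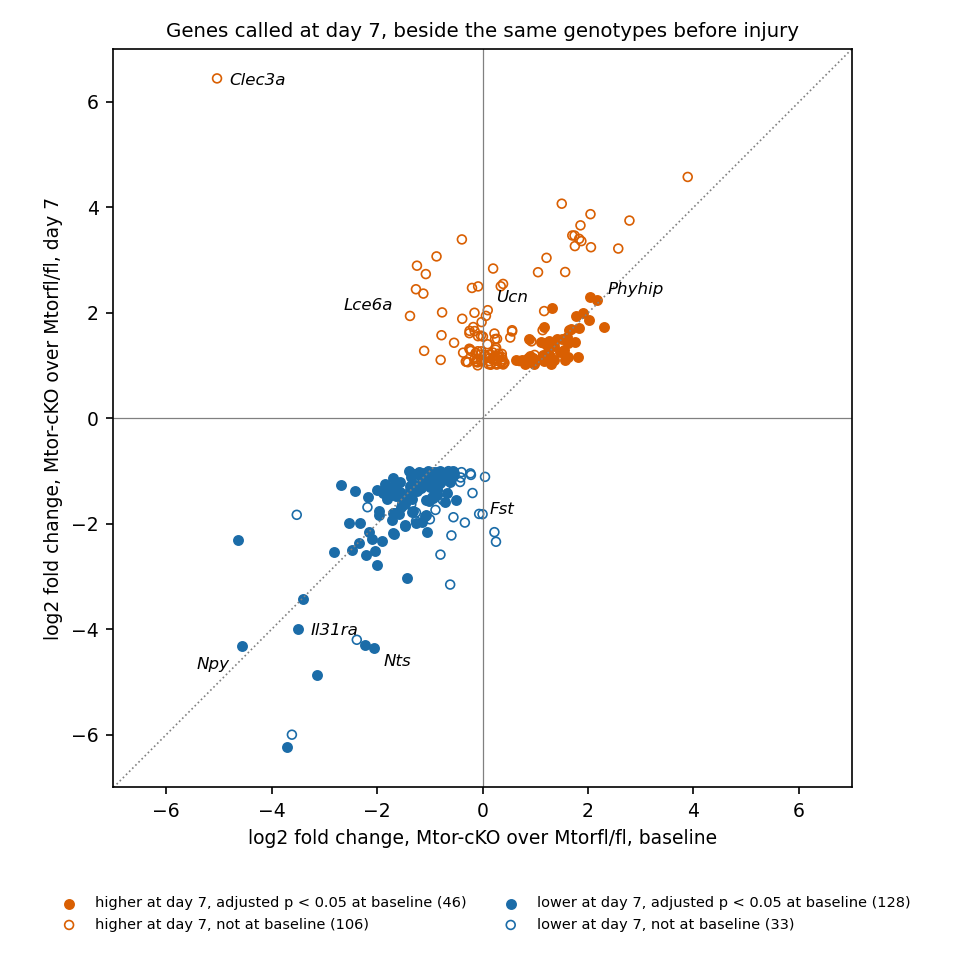
Log2 fold change of *Mtor-cKO* over *Mtorfl/fl* at day 7 (vertical axis) and at baseline (horizontal axis) for the 161 genes called lower (blue) and the 152 called higher (orange) at day 7, with filled points for adjusted p under 0.05 at baseline and a dotted line at equal change. Filled points, 128 lower and 46 higher, lie on both axes on the same side of 0, and the open points of genes called higher spread around a baseline change of 0.

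Some of the largest falls were in neuropeptide precursors, the transcripts from which sensory neurons make their peptide transmitters. Of 14 precursor genes tested, 9 passed downward and 1 upward, with a median log2 fold change of -0.72. *Npy*, which encodes neuropeptide Y and is induced in large neurons by nerve injury, stood at 8.51, 11.1, 7.69 and 8.03 FPKM in *Mtor-cKO* replicates 1 to 4, against 127, 112, 332, 156 and 130.2 FPKM in *Mtorfl/fl* replicates 1 to 5. The groups were far apart, and *Mtor-cKO* ganglia had the lower level in all 4 libraries (log2 fold change -4.31, SE 0.33, edgeR adjusted p = 4.48e-07). *Nts*, the precursor of neurotensin, was at 4.05, 4.41, 3.48 and 4.97 FPKM in *Mtor-cKO* replicates 1 to 4, against 58.8, 53.1, 139, 68.9 and 91.5 FPKM in *Mtorfl/fl* replicates 1 to 5 (log2 fold change -4.30, SE 0.26, edgeR adjusted p = 3.93e-08). For both genes *Mtorfl/fl* replicate 3 was the highest library, and the difference held without it. Before injury both were at lower levels than at day 7 and already lower in *Mtor-cKO* (*Npy* at 0 to 0.19 FPKM in *Mtor-cKO*, against 1.26 to 3.93 FPKM in *Mtorfl/fl*, log2 fold change -4.56, edgeR adjusted p = 0.00234; *Nts* at 1.40 to 1.78 FPKM in *Mtor-cKO*, against 5.59 to 9.20 FPKM in *Mtorfl/fl*, log2 fold change -2.23, edgeR adjusted p = 8.74e-05). *Sst*, which encodes somatostatin, was at 2.83, 3.05, 2.03 and 3.88 FPKM in *Mtor-cKO* replicates 1 to 4, against 12.4, 13.9, 11.7, 15.9 and 20.5 FPKM in *Mtorfl/fl* replicates 1 to 5, again without overlap (log2 fold change -2.36, SE 0.33, edgeR adjusted p = 0.000104).

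The calcitonin gene-related peptides, vasodilator peptides of nociceptors, were lower to a smaller degree. *Calcb* (CGRP-beta) had 48.0, 37.5, 42.6 and 50.2 FPKM in *Mtor-cKO* replicates 1 to 4, against 98.3, 101, 75.0, 101 and 160.1 FPKM in *Mtorfl/fl* replicates 1 to 5 (log2 fold change -1.14, SE 0.13, edgeR adjusted p = 2.6e-05). *Calca* (CGRP-alpha) ran from 483 to 707 FPKM in *Mtor-cKO*, against 691 to 1497 FPKM in *Mtorfl/fl*, and the ranges overlapped (log2 fold change -0.77, SE 0.16, edgeR adjusted p = 0.00224). *Tac1*, the precursor of substance P, ran from 137 to 191 FPKM in *Mtor-cKO*, against 174 to 364 FPKM in *Mtorfl/fl* (log2 fold change -0.53, SE 0.14, edgeR adjusted p = 0.0139), and lost its call without *Mtor-cKO* replicate 2 (edgeR adjusted p = 0.0533). *Gal*, which encodes galanin, a peptide that rises in injured neurons, had 209, 225, 173 and 129 FPKM in *Mtor-cKO* replicates 1 to 4, against 211, 237, 457, 227 and 306 FPKM in *Mtorfl/fl* replicates 1 to 5. The ranges of *Gal* overlapped (log2 fold change -0.67, SE 0.20, edgeR adjusted p = 0.0227), and the adjusted p reached up to 0.168 when *Mtor-cKO* replicate 3, replicate 4 or both replicates 1 and 4 were left out, or when the day 7 libraries were fitted alone. Before injury *Gal* leaned the other way (22.03 to 30.23 FPKM in *Mtor-cKO*, against 14 to 20.4 FPKM in *Mtorfl/fl*, log2 fold change 0.52). Neither this baseline difference nor the interaction passed (edgeR adjusted p = 0.1496 and 0.1399). *Crh*, which encodes corticotropin-releasing hormone, did not pass (2.34 to 3.00 FPKM in *Mtor-cKO*, against 1.64 to 8.09 FPKM in *Mtorfl/fl*, log2 fold change -0.49, edgeR adjusted p = 0.379). *Ucn*, which encodes urocortin, a ligand of the same receptors, was the precursor that rose. Its level was 13.1, 26.2, 12.9 and 21.1 FPKM in *Mtor-cKO* replicates 1 to 4, against 2.84, 2.58, 5.86, 5.71 and 4.64 FPKM in *Mtorfl/fl* replicates 1 to 5 (log2 fold change 2.05, SE 0.37, edgeR adjusted p = 0.000949), whereas before injury no library of either genotype held more than 0.38 FPKM.

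The promoters of 4 of these genes, 250 bases before to 50 after the RefSeq transcript start (GRCm38.p6), are shown since the genes moved furthest among the peptides, in opposite directions. Capitals mark matches on either strand to TGANTCA (AP-1, bound by JUN and FOS proteins and ATF3), TGACGTCA (CRE, bound by CREB), TGATGNAA (bound by ATF4 with a C/EBP partner) or TTCNNNGAA (STAT). *Nts* (chr10:102490369-102490668, minus strand) holds a match to AP-1 and one to the ATF4 motif, *Sst* (chr16:23890795-23891094, minus strand) and *Ucn* (chr5:31138846-31139145, minus strand) each hold a CRE, and *Npy* (chr6:49822460-49822759, plus strand) holds none of the 4 in this window. The study searched a longer stretch around the *Npy* start with other motif models and reported putative sites for Jun, CREB and STAT3.
Nts: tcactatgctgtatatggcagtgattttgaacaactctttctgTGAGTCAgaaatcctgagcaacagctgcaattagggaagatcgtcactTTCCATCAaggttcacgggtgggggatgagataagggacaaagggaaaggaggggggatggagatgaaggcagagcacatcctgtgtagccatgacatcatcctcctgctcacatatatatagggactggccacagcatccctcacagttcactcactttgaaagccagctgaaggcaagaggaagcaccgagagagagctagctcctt
Npy: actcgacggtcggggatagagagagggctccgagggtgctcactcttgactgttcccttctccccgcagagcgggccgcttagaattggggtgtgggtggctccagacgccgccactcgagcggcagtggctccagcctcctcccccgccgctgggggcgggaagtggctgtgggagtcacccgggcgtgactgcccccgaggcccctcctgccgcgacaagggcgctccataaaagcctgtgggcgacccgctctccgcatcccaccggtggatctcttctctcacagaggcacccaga
Sst: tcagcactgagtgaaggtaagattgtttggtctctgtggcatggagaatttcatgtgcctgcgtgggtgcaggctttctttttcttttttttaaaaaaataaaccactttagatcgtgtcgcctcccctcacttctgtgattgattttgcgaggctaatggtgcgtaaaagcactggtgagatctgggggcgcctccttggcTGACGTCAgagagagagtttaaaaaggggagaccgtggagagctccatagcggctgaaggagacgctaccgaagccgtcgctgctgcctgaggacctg
Ucn: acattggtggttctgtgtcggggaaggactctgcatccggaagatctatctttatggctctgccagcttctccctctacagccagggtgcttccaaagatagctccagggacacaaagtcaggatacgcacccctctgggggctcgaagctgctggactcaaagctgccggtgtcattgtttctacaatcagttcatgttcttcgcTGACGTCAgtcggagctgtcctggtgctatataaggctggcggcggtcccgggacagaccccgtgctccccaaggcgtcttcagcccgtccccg

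*Sst* fell and *Ucn* rose with the same CRE at a similar distance from the start, 48 and 44 bases before it. Over the genes tested with a RefSeq promoter (10568, of which 8369 have a single one; the first listed was used for the others), 3.19% hold a CRE, against 2 of the 124 genes called lower that have a promoter (1.61%) and 3 of the 103 called higher (2.91%). AP-1 matches were present in 11 of the 124 (8.87%), 12 of the 103 (11.7%) and 4.81% of all. The ATF4 motif was present in 6 of the 124 (4.84%), 2 of the 103 (1.94%) and 2.38% of all, and the STAT motif in 16 of the 124 (12.9%), 8 of the 103 (7.77%) and 6.75% of all. These shares are descriptions, with no test, and a match is not a bound site.

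*Sst* and *Nts* mark, with *Nppb*, the NP3 class of small neurons that signal itch to the spinal cord. All 9 NP3 markers tested, from a list chosen with earlier results of these data known, were lower at day 7 (13.1% of all genes were). Their median log2 fold change was -0.95, all 9 were lower at baseline, and these counts only describe the markers. Their summed level was 100.5 to 108 FPKM in *Mtor-cKO* and 231 to 311 FPKM in *Mtorfl/fl*, of which the widely expressed *Jak1* made up 62.6 to 71.3 FPKM in *Mtor-cKO* and 80 to 107 FPKM in *Mtorfl/fl*, and *Nts* 3.48 to 4.97 FPKM in *Mtor-cKO* and 53.1 to 139 FPKM in *Mtorfl/fl*. The other 7 markers summed to 31.2 to 40.6 FPKM in *Mtor-cKO* and 66.2 to 111 FPKM in *Mtorfl/fl*. Fewer neurons of this class and less of these transcripts in each neuron cannot be told apart in whole ganglia. *Il31ra*, the ligand-binding chain of the receptor for the itch cytokine IL-31, had 0.63, 0.60, 0.65 and 0.90 FPKM in *Mtor-cKO* replicates 1 to 4, against 10.9, 10.2, 8.12, 10.9 and 13.2 FPKM in *Mtorfl/fl* replicates 1 to 5 (log2 fold change -3.99, SE 0.19, edgeR adjusted p = 4.41e-09). It was as low in *Mtor-cKO* before injury (0.57 to 0.92 FPKM in *Mtor-cKO*, against 6.90 to 9.81 FPKM in *Mtorfl/fl*). *Osmr*, the chain that IL-31 and oncostatin M receptors share and that other cells also express, was lower by less, at 9.54 to 11.1 FPKM in *Mtor-cKO*, against 12.2 to 14.2 FPKM in *Mtorfl/fl* (log2 fold change -0.46, SE 0.09, edgeR adjusted p = 0.00184). *Nppb*, which encodes the natriuretic peptide that these neurons release, had 7.70, 7.36, 6.95 and 12.4 FPKM in *Mtor-cKO* replicates 1 to 4, against 13.9, 16.6, 14.7, 18.8 and 40.6 FPKM in *Mtorfl/fl* replicates 1 to 5 (log2 fold change -1.28, SE 0.30, edgeR adjusted p = 0.00504), and the groups did not overlap.

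The remaining markers of the class were also lower. *Htr1f*, a serotonin receptor, ran from 1.50 to 1.77 FPKM in *Mtor-cKO*, against 2.46 to 3.62 FPKM in *Mtorfl/fl* (log2 fold change -0.95, SE 0.14, edgeR adjusted p = 0.00023), and *Cysltr2*, a cysteinyl leukotriene receptor, from 3.40 to 5.00 FPKM in *Mtor-cKO*, against 5.62 to 8.78 FPKM in *Mtorfl/fl* (log2 fold change -0.82). *Ptgdr*, a prostaglandin D receptor, ran from 5.54 to 7.31 FPKM in *Mtor-cKO*, against 10.3 to 12.5 FPKM in *Mtorfl/fl* (log2 fold change -0.84). *Jak1*, a kinase that IL-31 receptors use and that most cells express, ran from 62.6 to 71.3 FPKM in *Mtor-cKO*, against 80.0 to 107 FPKM in *Mtorfl/fl* (log2 fold change -0.64, SE 0.14, edgeR adjusted p = 0.0038), and its call was lost without *Mtor-cKO* replicates 1 and 4 (adjusted p = 0.0637). *Mrgpra2b*, a receptor of the Mrgpr family that is not in the NP3 list, had 7.56, 5.35, 6.85 and 8.26 FPKM in *Mtor-cKO* replicates 1 to 4, against 18.8, 20.9, 15.7, 22.1 and 22.6 FPKM in *Mtorfl/fl* replicates 1 to 5 (log2 fold change -1.54, SE 0.16, edgeR adjusted p = 1.13e-05). It has a close paralog, *Mrgpra2a*, and reads may be shared between the pair. The *Il31ra* promoter is shown as that of a receptor of these neurons with a large fall (chr13:112580613-112580912, minus strand, RefSeq, GRCm38.p6), with its only match, to the STAT motif, in capitals.
Il31ra: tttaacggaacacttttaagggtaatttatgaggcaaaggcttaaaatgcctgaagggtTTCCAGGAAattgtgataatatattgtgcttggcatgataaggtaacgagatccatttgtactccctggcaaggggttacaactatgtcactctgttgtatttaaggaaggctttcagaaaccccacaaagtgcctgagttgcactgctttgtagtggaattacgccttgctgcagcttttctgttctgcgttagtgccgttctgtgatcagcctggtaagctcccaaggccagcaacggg

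Markers of the other nociceptor classes did not move as one. Of 9 peptidergic markers 5 passed downward and 1 upward (median -0.43), with 3 downward when *Mtor-cKO* replicate 2 or 3 or both replicates 1 and 4 were left out. Of 13 nonpeptidergic and Mrgpr markers 7 passed downward and 2 upward (median -0.38), with 1 upward without *Mtor-cKO* replicate 3, 4 downward without *Mtor-cKO* replicates 1 and 4 and 3 downward without *Mtorfl/fl* replicates 1 and 2. Of 6 markers of C low-threshold mechanoreceptors 1 passed, downward (median 0.11), and it did not pass without any one of the *Mtor-cKO* libraries or without either doubted pair, while 2 passed upward without *Mtorfl/fl* replicates 1 and 2. Of 12 pan-neuronal genes 6 were lower and none higher (median -0.32), and their sum was lower in every *Mtor-cKO* library than in any *Mtorfl/fl* library. The part of this in the falls of single neuronal genes was not tested. *Uchl1*, an abundant neuronal deubiquitinase, ran from 1563 to 1746 FPKM in *Mtor-cKO*, against 2005 to 2269 FPKM in *Mtorfl/fl* (log2 fold change -0.42, SE 0.07, edgeR adjusted p = 0.00061), whereas *Rbfox3*, *Prph* and *Pou4f1* had log2 fold changes of -0.01, 0.08 and -0.04 and did not pass. *Avil*, the advillin gene whose regulatory sequence drives the Cre in these mice, had 149, 159.8, 160.2 and 157 FPKM in *Mtor-cKO* replicates 1 to 4, against 331, 317, 292, 309.5 and 212 FPKM in *Mtorfl/fl* replicates 1 to 5 (log2 fold change -0.95, SE 0.17, edgeR adjusted p = 0.000805). As *Mtorfl/fl* mice carry no Cre, effects of Cre or of its driver cannot be told apart from *Mtor* loss, in this gene or in others.

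Neurofilaments, the structural proteins of large axons, were among the most abundant transcripts that fell. *Nefl* (the light chain) had 663, 657, 663 and 670.5 FPKM in *Mtor-cKO* replicates 1 to 4, against 1737, 1622, 1255, 1736 and 1279 FPKM in *Mtorfl/fl* replicates 1 to 5 (log2 fold change -1.25, SE 0.14, edgeR adjusted p = 1.99e-05). *Nefm* (the medium chain) ran from 315 to 339 FPKM in *Mtor-cKO*, against 474 to 860.1 FPKM in *Mtorfl/fl* (log2 fold change -1.16, SE 0.22, edgeR adjusted p = 0.00133) and *Nefh* (the heavy chain) from 222 to 233 FPKM in *Mtor-cKO*, against 303 to 479.5 FPKM in *Mtorfl/fl* (log2 fold change -0.89, SE 0.20, edgeR adjusted p = 0.00406). None of the 3 overlapped between the genotypes (11% of all genes tested lay apart downward), although the call of *Nefh* was lost without *Mtor-cKO* replicates 1 and 4 (adjusted p = 0.053). All 3 were also lower before injury, with log2 fold changes of -1.33, -1.15 and -1.08. *Calb1*, the calcium buffer calbindin of large neurons, had 4.71, 5.37, 5.72 and 4.99 FPKM in *Mtor-cKO* replicates 1 to 4, against 15.1, 17.3, 10.6, 12.1 and 8.74 FPKM in *Mtorfl/fl* replicates 1 to 5 (log2 fold change -1.34, SE 0.18, edgeR adjusted p = 8.33e-05). Within the list of 13 large myelinated neuron markers 4 passed downward and 2 upward (30.8% and 15.4%, against 13.1% and 12.9% of all genes). Without *Mtor-cKO* replicates 1 and 4 1 passed in each direction, and without *Mtorfl/fl* replicates 1 and 2 2 passed downward and 1 upward. One of the 2 first called upward was *Pvalb*, which skeletal muscle also expresses: it had 112, 54.0, 52.1 and 50.6 FPKM in *Mtor-cKO* replicates 1 to 4, against 36.3, 31.5, 33.9, 30.4 and 41.1 FPKM in *Mtorfl/fl* replicates 1 to 5, its highest value in the library with muscle transcripts, and its adjusted p was as high as 0.204 without that library or either doubted pair.

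**Figure D3:**
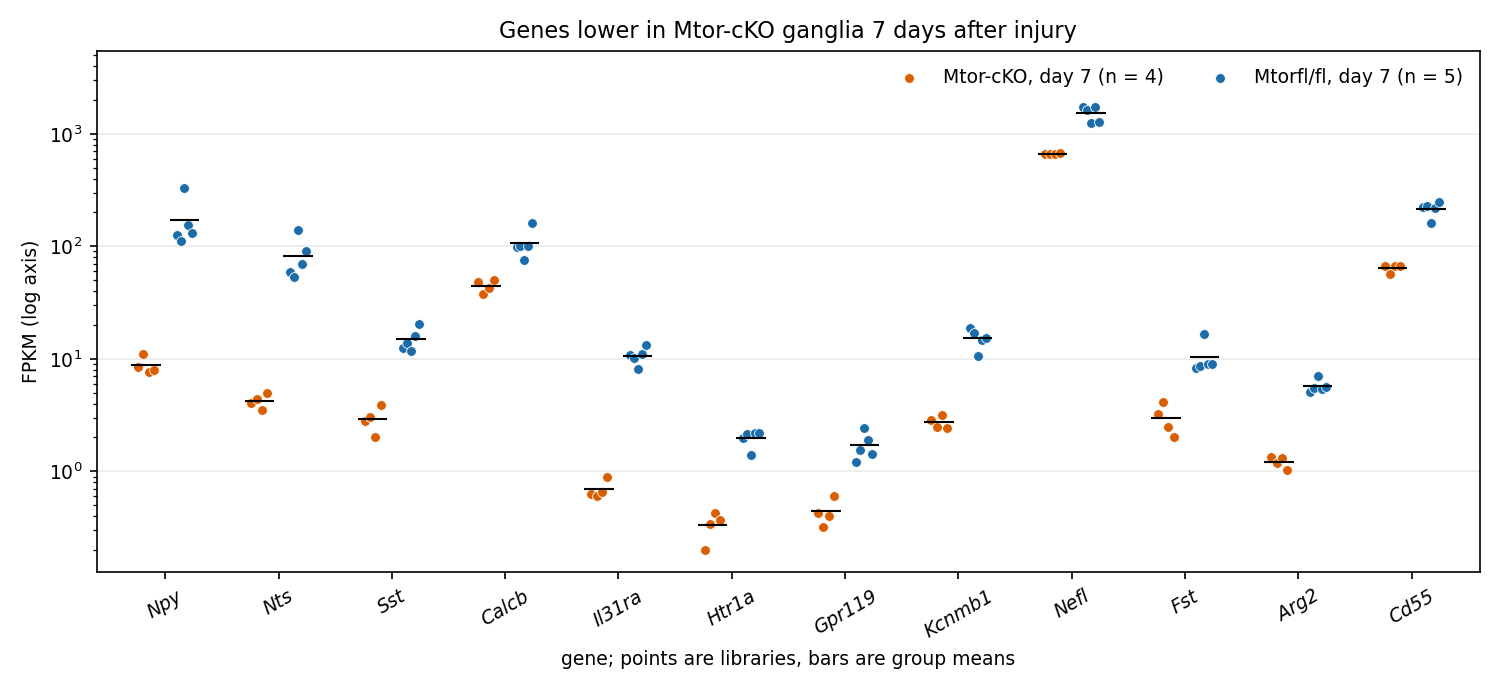
FPKM (log axis) of 12 genes that were lower in *Mtor-cKO*, with 1 point per library, *Mtor-cKO* (4 libraries, orange) left of *Mtorfl/fl* (5 libraries, blue), and bars at the group means. The genotypes do not overlap for any of the 12, from *Il31ra* (0.6 to 0.9 FPKM in *Mtor-cKO*, against 8.12 to 13.2 FPKM in *Mtorfl/fl*) to *Nefl* (657 to 670.5 FPKM, against 1255 to 1737 FPKM). Of all genes tested 11% lay apart downward. Many of the 12 were named for a small p-value or a lack of overlap, so their separation only describes them.

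Of 20 injury-responsive transcription factors none was lower and 3 were higher, a share of 15% that is near the 12.9% of all genes, and 1 was higher without *Mtorfl/fl* replicates 1 and 2. *Atf3*, the factor that marks axotomised neurons, had 120.5, 166, 107 and 113 FPKM in *Mtor-cKO* replicates 1 to 4, against 100.2, 91.6, 227, 98.1 and 105 FPKM in *Mtorfl/fl* replicates 1 to 5, and the ranges overlapped (log2 fold change -0.01, SE 0.25, edgeR adjusted p = 0.989). The level of *Sprr1a*, whose small proline-rich product is induced in regrowing axons, ran from 507 to 862 FPKM in *Mtor-cKO*, against 619.6 to 1641 FPKM in *Mtorfl/fl* (log2 fold change -0.46, SE 0.36, edgeR adjusted p = 0.364). Neither p shows the genotypes to be alike. *Csf1*, the injury-induced cytokine that acts on microglia, also did not pass (log2 fold change -0.32, edgeR adjusted p = 0.254). Of the 3 factors that passed upward, *Myc* ran from 6.98 to 10.9 FPKM in *Mtor-cKO*, against 5.58 to 7.72 FPKM in *Mtorfl/fl* (log2 fold change 0.38, edgeR adjusted p = 0.0236) and *Rest*, the repressor of neuronal genes, from 1.03 to 1.38 FPKM in *Mtor-cKO*, against 0.61 to 1.14 FPKM in *Mtorfl/fl* (log2 fold change 0.53, edgeR adjusted p = 0.0123). Both lost their call in several fits, with adjusted p up to 0.106 for *Myc* and 0.0902 for *Rest*. Among 20 regeneration-associated effectors 4 were lower and none higher, led by *Nefl*, and 2 were lower without *Mtor-cKO* replicate 3 or 4, *Mtorfl/fl* replicate 3 or *Mtorfl/fl* replicates 1 and 2, and 1 without *Mtor-cKO* replicates 1 and 4. The first share, 20%, is not far from the 13.1% of all genes. The growth cone proteins *Gap43* (253 to 309 FPKM in *Mtor-cKO*, against 309 to 539 FPKM in *Mtorfl/fl*, log2 fold change -0.42, edgeR adjusted p = 0.0379) and *Basp1* (179.7 to 185 FPKM in *Mtor-cKO*, against 199 to 234 FPKM in *Mtorfl/fl*, log2 fold change -0.27, edgeR adjusted p = 0.0294) lost their calls in several fits that left out a library (adjusted p up to 0.217 and 0.155).

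Injury itself, within *Mtorfl/fl*, raised 139 genes and lowered 16 (1.04% and 0.12% of the genes tested). This contrast uses the same 5 *Mtorfl/fl* day 7 libraries, so a library that is high enters both, and no overlap of the gene lists is given. Of the genes that injury raised and that stood lower in *Mtor-cKO*, *Lipn*, a lipase of the acid lipase family, had 0.11, 0.20, 0.26 and 0.13 FPKM in *Mtor-cKO* replicates 1 to 4, against 3.41, 3.28, 8.73, 4.61 and 3.77 FPKM in *Mtorfl/fl* replicates 1 to 5 (log2 fold change -4.86, SE 0.37, edgeR adjusted p = 4.48e-07), and *Anxa10*, an annexin, had 0.22, 0.32, 0.16 and 0.25 FPKM in *Mtor-cKO* replicates 1 to 4, against 3.75, 3.57, 6.74, 3.23 and 3.94 FPKM in *Mtorfl/fl* replicates 1 to 5 (log2 fold change -4.20, SE 0.33, edgeR adjusted p = 3.69e-06). *Anxa10* was listed at 0 in all 4 *Mtor-cKO* baseline libraries and at 0.03 FPKM or less in those of *Mtorfl/fl*. *Fgf3*, a fibroblast growth factor, ran from 1.10 to 1.75 FPKM in *Mtor-cKO*, against 2.60 to 8.43 FPKM in *Mtorfl/fl* (log2 fold change -1.63, SE 0.34, edgeR adjusted p = 0.00271), and its adjusted p was 0.0577 without *Mtor-cKO* replicates 1 and 4. *Taf7l*, a homolog of a TFIID subunit known from the testis, ran from 0.07 to 0.19 FPKM in *Mtor-cKO*, against 0.78 to 1.57 FPKM in *Mtorfl/fl* (log2 fold change -3.15, SE 0.46, edgeR adjusted p = 0.000166). The *Anxa10* promoter is shown as that of an injury-induced gene with a large fall (chr8:62123144-62123443, minus strand, RefSeq, GRCm38.p6). It holds 2 AP-1 matches, in capitals, the nearer one 16 bases before the start.
Anxa10: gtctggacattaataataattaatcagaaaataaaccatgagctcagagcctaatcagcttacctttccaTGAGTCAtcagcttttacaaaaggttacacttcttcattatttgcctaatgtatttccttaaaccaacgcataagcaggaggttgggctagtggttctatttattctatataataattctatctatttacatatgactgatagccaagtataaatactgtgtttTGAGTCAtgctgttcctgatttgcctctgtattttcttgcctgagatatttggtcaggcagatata

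Of 13 genes of the activin list 3 were higher and 2 lower (23.1% and 15.4%, against 12.9% and 13.1% of all genes). *Fst*, which encodes follistatin, a secreted protein that binds and blocks activins, had 3.21, 4.16, 2.46 and 2.01 FPKM in *Mtor-cKO* replicates 1 to 4, against 8.31, 8.61, 16.8, 8.92 and 8.91 FPKM in *Mtorfl/fl* replicates 1 to 5 (log2 fold change -1.81, SE 0.23, edgeR adjusted p = 4.99e-05). *Inhbb*, which encodes the beta B subunit of activin B, had 13.8, 18.8, 14.0 and 10.1 FPKM in *Mtor-cKO* replicates 1 to 4, against 3.32, 4.29, 8.19, 4.46 and 4.15 FPKM in *Mtorfl/fl* replicates 1 to 5 (log2 fold change 1.51, SE 0.24, edgeR adjusted p = 0.000367). In both genes the genotypes were apart at day 7 and overlapped before injury (baseline edgeR adjusted p = 0.903 for *Fst* and 0.561 for *Inhbb*), but the interaction test did not pass (edgeR adjusted p = 0.0683 and 0.184). *Inha*, the inhibin alpha subunit, was higher (3.86 to 4.87 FPKM in *Mtor-cKO*, against 2.2 to 3.54 FPKM in *Mtorfl/fl*, log2 fold change 0.67, SE 0.14, edgeR adjusted p = 0.00247), and *Fstl1*, a follistatin-like glycoprotein, lower (349 to 409 FPKM in *Mtor-cKO*, against 458 to 638 FPKM in *Mtorfl/fl*, log2 fold change -0.63, SE 0.11, edgeR adjusted p = 0.000925). *Lce6a* had 4.19, 7.33, 5.48 and 4.18 FPKM in *Mtor-cKO* replicates 1 to 4, against 1.52, 1.70, 3.28, 1.30 and 1.88 FPKM in *Mtorfl/fl* replicates 1 to 5 (log2 fold change 1.94, SE 0.28, edgeR adjusted p = 0.000155). Before injury *Lce6a* stood at 0.08 to 0.23 FPKM in *Mtor-cKO*, against 0.28 to 0.47 FPKM in *Mtorfl/fl* (log2 fold change -1.38, edgeR adjusted p = 0.0672), and the difference of the 2 genotype effects was 3.32 on the log2 scale (interaction edgeR adjusted p = 0.0309). That difference lay between 3.11 and 3.61 in the 16 alternatives with a value, but its adjusted p was above 0.05 in 10 of them and reached 0.127, among them both fits without a doubted pair and every fit without 1 *Mtor-cKO* library.

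Of 15 genes tested from a list of neuropeptide receptors, which also held a lipid and an orphan receptor of injured neurons, 4 were lower and 2 higher (26.7% and 13.3%), and 2 were lower in each fit without a doubted pair. *Gpr119*, a receptor for oleoylethanolamide, had 0.43, 0.32, 0.40 and 0.61 FPKM in *Mtor-cKO* replicates 1 to 4, against 1.2, 1.56, 2.43, 1.90 and 1.44 FPKM in *Mtorfl/fl* replicates 1 to 5 (log2 fold change -1.99, SE 0.28, edgeR adjusted p = 0.000117), and was lower before injury too (log2 fold change -2.53). *Gpr151*, the orphan receptor, ran from 10.8 to 18.3 FPKM in *Mtor-cKO*, against 24.1 to 52.4 FPKM in *Mtorfl/fl* (log2 fold change -1.21, SE 0.21, edgeR adjusted p = 0.000763). *Npy2r*, the presynaptic receptor for neuropeptide Y, had 5.64, 6.72, 7.80 and 8.49 FPKM in *Mtor-cKO* replicates 1 to 4, against 10.9, 10.6, 11.2, 10.7 and 9.13 FPKM in *Mtorfl/fl* replicates 1 to 5 (log2 fold change -0.57, SE 0.15, edgeR adjusted p = 0.0103), and its call was lost in both fits without a doubted pair. *Npy1r*, another receptor for the same peptide, ran from 16.5 to 20.1 FPKM in *Mtor-cKO*, against 14.8 to 17.8 FPKM in *Mtorfl/fl* and did not pass (log2 fold change 0.11, edgeR adjusted p = 0.421). Of the pair that rose, of which 1 passed without *Mtor-cKO* replicate 4 or replicates 1 and 4, *Sort1*, the sorting receptor sortilin, which binds neurotensin, ran from 14.5 to 15.7 FPKM in *Mtor-cKO*, against 11.5 to 14.0 FPKM in *Mtorfl/fl* (log2 fold change 0.25, SE 0.06, edgeR adjusted p = 0.00549).

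Of 38 subunits of neurotransmitter receptors and related genes, 10 were lower and 1 higher. Without *Mtor-cKO* replicates 1 and 4 3 were lower, and without *Mtorfl/fl* replicates 1 and 2 5 were lower and 3 higher. *Htr1a*, the inhibitory serotonin receptor 1A, had 0.20, 0.34, 0.43 and 0.37 FPKM in *Mtor-cKO* replicates 1 to 4, against 1.99, 2.15, 1.39, 2.18 and 2.19 FPKM in *Mtorfl/fl* replicates 1 to 5 (log2 fold change -2.60, SE 0.22, edgeR adjusted p = 1.95e-06). *Htr2a*, the excitatory serotonin receptor 2A, had 2.03, 1.66, 1.86 and 1.87 FPKM in *Mtor-cKO* replicates 1 to 4, against 4.08, 3.81, 3.09, 4.19 and 3.77 FPKM in *Mtorfl/fl* replicates 1 to 5 (log2 fold change -1.07, SE 0.17, edgeR adjusted p = 0.000361). Both sets of libraries were apart, and both genes kept their call in every alternative.

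Of 19 sensory transduction channels 9 were lower and 2 higher (47.4% and 10.5%), and 1 was higher in each fit without a doubted pair. *P2rx2*, an ATP-gated channel subunit, ran from 1.18 to 1.67 FPKM in *Mtor-cKO*, against 2.34 to 3.55 FPKM in *Mtorfl/fl* (log2 fold change -1.18, SE 0.21, edgeR adjusted p = 0.000699), *P2rx5* from 1.86 to 2.17 FPKM in *Mtor-cKO*, against 2.81 to 4.00 FPKM in *Mtorfl/fl* (log2 fold change -0.95), and *Asic3*, an acid-sensing channel, from 19.5 to 24.1 FPKM in *Mtor-cKO*, against 26.5 to 52.0 FPKM in *Mtorfl/fl* (log2 fold change -0.96). *Trpc6*, a cation channel subunit, ran from 3.86 to 4.63 FPKM in *Mtor-cKO*, against 4.97 to 8.40 FPKM in *Mtorfl/fl* (log2 fold change -0.75, SE 0.12, edgeR adjusted p = 0.000332). *Trpa1*, the irritant receptor, overlapped between the genotypes (6.41 to 8.78 FPKM in *Mtor-cKO*, against 8.10 to 15.5 FPKM in *Mtorfl/fl*, log2 fold change -0.80, SE 0.19, edgeR adjusted p = 0.00579). The calls of *Asic3* and *Trpa1* were lost without *Mtor-cKO* replicates 1 and 4 (adjusted p = 0.0758 and 0.0532). *Trpm8*, the cold receptor, was higher (11.8 to 13.8 FPKM in *Mtor-cKO*, against 5.16 to 8.48 FPKM in *Mtorfl/fl*, log2 fold change 0.85, SE 0.17, edgeR adjusted p = 0.00185), and *Trpv1*, the heat and capsaicin receptor, did not pass (log2 fold change -0.03, edgeR adjusted p = 0.88).

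*Kcnmb1*, a beta subunit of the calcium-activated BK channel, had 2.87, 2.49, 3.16 and 2.45 FPKM in *Mtor-cKO* replicates 1 to 4, against 18.8, 16.9, 10.5, 14.8 and 15.3 FPKM in *Mtorfl/fl* replicates 1 to 5 (log2 fold change -2.52, SE 0.16, edgeR adjusted p = 6.96e-08). It was also low before injury (4.01 to 5.04 FPKM in *Mtor-cKO*, against 17.8 to 21.1 FPKM in *Mtorfl/fl*). Of 37 genes of the potassium channel list 5 were lower and 3 higher, shares of 13.5% and 8.11% beside 13.1% and 12.9% of all genes, and 2 were lower without *Mtor-cKO* replicates 1 and 4 and 3 without *Mtorfl/fl* replicates 1 and 2. *Kcnip1*, a subunit that binds A-type potassium channels, had 5.30, 6.19, 6.68 and 6.15 FPKM in *Mtor-cKO* replicates 1 to 4, against 15.9, 14.2, 10.2, 13.4 and 13.4 FPKM in *Mtorfl/fl* replicates 1 to 5 (log2 fold change -1.23, SE 0.15, edgeR adjusted p = 3.26e-05), and its paralog *Kcnip2* ran from 37.3 to 40.2 FPKM in *Mtor-cKO*, against 45.5 to 67.7 FPKM in *Mtorfl/fl* (log2 fold change -0.61, SE 0.10, edgeR adjusted p = 0.000633). The leak channel *Kcnk3* (TASK-1) was higher (7.92 to 8.96 FPKM in *Mtor-cKO*, against 4.66 to 6.31 FPKM in *Mtorfl/fl*, log2 fold change 0.60, SE 0.13, edgeR adjusted p = 0.00262). *Scn2b*, the beta 2 subunit of voltage-gated sodium channels, had 28.9, 26.9, 28.6 and 27.5 FPKM in *Mtor-cKO* replicates 1 to 4, against 9.85, 9.76, 7.28, 9.18 and 6.51 FPKM in *Mtorfl/fl* replicates 1 to 5 (log2 fold change 1.67, SE 0.14, edgeR adjusted p = 1.57e-06). Its genotype difference before injury was of the same size (log2 fold change 1.65), and the pore-forming subunits of nociceptors, *Scn9a*, *Scn10a* and *Scn11a*, had log2 fold changes of 0.04, 0.15 and -0.30 that did not pass.

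The genes with the smallest p-values among those lower at day 7 were of several kinds. *Arg2*, the mitochondrial arginase that turns arginine into ornithine, the precursor of polyamines, had 1.33, 1.18, 1.32 and 1.03 FPKM in *Mtor-cKO* replicates 1 to 4, against 5.10, 5.51, 7.11, 5.40 and 5.58 FPKM in *Mtorfl/fl* replicates 1 to 5 (log2 fold change -2.28, SE 0.14, edgeR adjusted p = 3.93e-08). *Htatip2*, an oxidoreductase, had 16.9, 18.6, 17.3 and 19.3 FPKM in *Mtor-cKO* replicates 1 to 4, against 38.7, 38.0, 38.3, 38.0 and 48.6 FPKM in *Mtorfl/fl* replicates 1 to 5 (log2 fold change -1.19, SE 0.07, edgeR adjusted p = 3.93e-08). *Cd55*, which shields cells from complement and is used as a marker of nonpeptidergic neurons, had 67.5, 56.8, 66.9 and 67.2 FPKM in *Mtor-cKO* replicates 1 to 4, against 222, 229, 162, 220.2 and 246 FPKM in *Mtorfl/fl* replicates 1 to 5 (log2 fold change -1.77, SE 0.12, edgeR adjusted p = 1.44e-07). All 3 were lower before injury as well, with log2 fold changes of -2.10, -0.92 and -1.33. *Gm765* ran from 20.9 to 23.3 FPKM in *Mtor-cKO*, against 69.0 to 112 FPKM in *Mtorfl/fl* (log2 fold change -2.19) and *BC048546* from 6.90 to 7.85 FPKM in *Mtor-cKO*, against 13.3 to 15.7 FPKM in *Mtorfl/fl* (log2 fold change -0.99), with no overlap. *Scin*, which encodes the actin-severing protein scinderin, ran from 0.18 to 0.39 FPKM in *Mtor-cKO*, against 1.78 to 4.03 FPKM in *Mtorfl/fl* (log2 fold change -3.43, SE 0.30, edgeR adjusted p = 2.35e-06), and *Fam26d*, a gene of the calcium homeostasis modulator family, from 0.14 to 0.26 FPKM in *Mtor-cKO*, against 0.93 to 1.39 FPKM in *Mtorfl/fl* (log2 fold change -2.53, SE 0.23, edgeR adjusted p = 2.76e-06).

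Other genes with a large fall were at low levels. *Hist1h4m*, a histone H4 gene, was listed at 0 in all 4 *Mtor-cKO* libraries and at 1.10, 0.92, 1.68, 1.2 and 0.42 FPKM in *Mtorfl/fl* (edgeR adjusted p = 0.00374). *Prr32* had 0, 0, 0.04 and 0 FPKM in *Mtor-cKO* replicates 1 to 4, against 1.31, 0.61, 1.73, 1.34 and 1.2 FPKM in *Mtorfl/fl* replicates 1 to 5 (edgeR adjusted p = 4.61e-06). *9130204L05Rik* ran from 0.07 to 0.32 FPKM in *Mtor-cKO*, against 2.56 to 5.17 FPKM in *Mtorfl/fl*, *Gm7714* from 0.07 to 0.30 FPKM in *Mtor-cKO*, against 0.47 to 2.11 FPKM in *Mtorfl/fl* and *Gm567* from 0.09 to 0.56 FPKM in *Mtor-cKO*, against 1.02 to 3.40 FPKM in *Mtorfl/fl*, with log2 fold changes of -4.36, -3.03 and -2.78. *Speer1* ran from 0.21 to 0.79 FPKM in *Mtor-cKO*, against 1.49 to 5.53 FPKM in *Mtorfl/fl* and *Gm7972* from 0.14 to 0.32 FPKM in *Mtor-cKO*, against 0.93 to 1.77 FPKM in *Mtorfl/fl*, and both were also raised by injury in *Mtorfl/fl*. *Gm7972* was named for its interaction p and the other 6 for a large change without overlap, and all 7 passed the filter of 1 FPKM through the *Mtorfl/fl* group alone.

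Sterol synthesis is under mTORC1 through the SREBP factors. Of 31 genes of sterol and fatty acid synthesis 22 were lower and none higher (median log2 fold change -0.38, against 0.0336 for all genes), and 12 of the 31 were lower at baseline. The count lower at day 7 was 19 without *Mtor-cKO* replicates 1 and 4 and 17 without *Mtorfl/fl* replicates 1 and 2. *Hsd17b7*, a reductase late in the cholesterol pathway, had 15.5, 18.6, 15.4 and 16.9 FPKM in *Mtor-cKO* replicates 1 to 4, against 33.8, 31.9, 46.5, 33.0 and 29.8 FPKM in *Mtorfl/fl* replicates 1 to 5 (log2 fold change -1.11, SE 0.14, edgeR adjusted p = 4.35e-05). *Idi1*, an isomerase of the isoprenoid branch, had 9.81, 11.8, 10.8 and 13.6 FPKM in *Mtor-cKO* replicates 1 to 4, against 18.6, 20.2, 19.0, 20.04 and 19.5 FPKM in *Mtorfl/fl* replicates 1 to 5 (log2 fold change -0.79, SE 0.10, edgeR adjusted p = 3.96e-05), and *Nsdhl*, which removes a methyl group from sterols, ran from 32.6 to 35.4 FPKM in *Mtor-cKO*, against 51.8 to 64.3 FPKM in *Mtorfl/fl* (log2 fold change -0.80, SE 0.10, edgeR adjusted p = 4.35e-05). *Tm7sf2*, a sterol reductase, ran from 23.2 to 26.9 FPKM in *Mtor-cKO*, against 36.6 to 47.6 FPKM in *Mtorfl/fl* (log2 fold change -0.77, SE 0.08, edgeR adjusted p = 1.23e-05) and *Hmgcs1*, an early enzyme of the pathway, from 164 to 205 FPKM in *Mtor-cKO*, against 267 to 290.5 FPKM in *Mtorfl/fl* (log2 fold change -0.68, SE 0.11, edgeR adjusted p = 0.000329). The factors themselves, *Srebf1* and *Srebf2*, did not pass (log2 fold changes 0.18 and 0.06), nor did *Fasn* (-0.12).

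Proteasome subunits fell together by small amounts. Of 31 subunits 22 were lower and none higher (median -0.30), 11 of 31 were lower at baseline, and 11 were lower at day 7 without *Mtor-cKO* replicates 1 and 4. *Psmb7*, a catalytic subunit, had 147, 142, 138 and 155 FPKM in *Mtor-cKO* replicates 1 to 4, against 204, 196, 218, 170.1 and 223 FPKM in *Mtorfl/fl* replicates 1 to 5 (log2 fold change -0.52, SE 0.07, edgeR adjusted p = 0.000132). *Psmd6*, of the regulatory lid, ran from 50.5 to 53.4 FPKM in *Mtor-cKO*, against 62.0 to 74.2 FPKM in *Mtorfl/fl* (log2 fold change -0.39, SE 0.05, edgeR adjusted p = 7.35e-05), *Psma1* from 63.5 to 71.2 FPKM in *Mtor-cKO*, against 81.2 to 105 FPKM in *Mtorfl/fl* (log2 fold change -0.43) and *Psmb2* from 96.3 to 99.3 FPKM in *Mtor-cKO*, against 113 to 146 FPKM in *Mtorfl/fl* (log2 fold change -0.37).

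The amino acid response driven by ATF4 was lower in part. Of 26 genes 9 were lower and 1 higher, and 4 were lower without *Mtor-cKO* replicates 1 and 4. *Atf4* itself had 105, 108, 101 and 101 FPKM in *Mtor-cKO* replicates 1 to 4, against 146, 144, 174, 136 and 179 FPKM in *Mtorfl/fl* replicates 1 to 5 (log2 fold change -0.60, SE 0.08, edgeR adjusted p = 5.47e-05). *Ddit3*, which encodes the stress factor CHOP, ran from 20.3 to 21.9 FPKM in *Mtor-cKO*, against 25.8 to 34.3 FPKM in *Mtorfl/fl* (log2 fold change -0.51, SE 0.10, edgeR adjusted p = 0.00122), and *Slc1a4*, a neutral amino acid carrier, from 18.5 to 20.4 FPKM in *Mtor-cKO*, against 23.2 to 36.5 FPKM in *Mtorfl/fl* (log2 fold change -0.63, SE 0.13, edgeR adjusted p = 0.00218). *Mthfd2*, of mitochondrial folate metabolism, ran from 12.2 to 15.2 FPKM in *Mtor-cKO*, against 16.6 to 27.8 FPKM in *Mtorfl/fl* (log2 fold change -0.58), and its adjusted p was 0.0689 without that pair. *Slc7a11*, the cystine carrier, was the one that was higher (0.92 to 1.46 FPKM in *Mtor-cKO*, against 0.44 to 0.98 FPKM in *Mtorfl/fl*, log2 fold change 0.86, edgeR adjusted p = 0.0149), and this call was lost without *Mtor-cKO* replicate 1 and without either doubted pair. The synthetic enzymes *Asns* and *Phgdh* did not pass (log2 fold changes -0.30 and 0.09).

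In arginine and polyamine metabolism 5 of 12 genes were lower and 1 higher, and 3 were lower without *Mtor-cKO* replicate 1 or 3 or without either doubted pair. Beside *Arg2*, *Sms* (spermine synthase, 29.9 to 32.0 FPKM in *Mtor-cKO*, against 35.6 to 40.2 FPKM in *Mtorfl/fl*, log2 fold change -0.36) and *Oaz2* (an antizyme, 97.9 to 112 FPKM in *Mtor-cKO*, against 127 to 152 FPKM in *Mtorfl/fl*, log2 fold change -0.45) were lower. *Paox*, a polyamine oxidase, was higher and overlapped (4.57 to 6.21 FPKM in *Mtor-cKO*, against 2.35 to 4.75 FPKM in *Mtorfl/fl*, log2 fold change 0.61, SE 0.16, edgeR adjusted p = 0.0109), and lost its call in both fits without a doubted pair. *Ass1*, argininosuccinate synthase of the arginine cycle and not part of that list, moved opposite to *Arg2*, with 129, 114, 120.4 and 128 FPKM in *Mtor-cKO* replicates 1 to 4, against 63.7, 57.2, 42.9, 49.5 and 48.0 FPKM in *Mtorfl/fl* replicates 1 to 5 (log2 fold change 1.19, SE 0.11, edgeR adjusted p = 4.01e-06).

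Lysosomal genes leaned upward: 14 of 34 were higher and 3 lower (median 0.16), with 10 higher at baseline. Without *Mtor-cKO* replicates 1 and 4 5 were higher and 1 lower (13 and 3 at an unadjusted p under 0.05). *Neu1*, the lysosomal sialidase, ran from 13.7 to 14.6 FPKM in *Mtor-cKO*, against 9.45 to 10.5 FPKM in *Mtorfl/fl* (log2 fold change 0.47, SE 0.05, edgeR adjusted p = 1.43e-05), and *Ctsf*, cathepsin F, had 23.8, 25.0, 24.7 and 27.1 FPKM in *Mtor-cKO* replicates 1 to 4, against 16.8, 16.6, 16.4, 15.1 and 16.3 FPKM in *Mtorfl/fl* replicates 1 to 5 (log2 fold change 0.59, SE 0.07, edgeR adjusted p = 1.87e-05). *Ctsa* ran from 52.6 to 57.6 FPKM in *Mtor-cKO*, against 38.0 to 44.5 FPKM in *Mtorfl/fl* and *Tpp1* from 20.8 to 22.1 FPKM in *Mtor-cKO*, against 16.1 to 18.7 FPKM in *Mtorfl/fl*, with log2 fold changes of 0.36 and 0.30. These 4 genes kept their call in every alternative. In the autophagy list 7 of 31 were lower and 2 higher, and 2 were lower without *Mtor-cKO* replicates 1 and 4. *Atg12*, a ubiquitin-like protein of the conjugation machinery, ran from 30.7 to 33.0 FPKM in *Mtor-cKO*, against 40.7 to 57.0 FPKM in *Mtorfl/fl* (log2 fold change -0.52, SE 0.08, edgeR adjusted p = 0.000305), and *Optn*, a cargo receptor, was higher (31.9 to 35.8 FPKM in *Mtor-cKO*, against 20.4 to 22.2 FPKM in *Mtorfl/fl*, log2 fold change 0.63, SE 0.09, edgeR adjusted p = 0.000186).

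Transcripts of the translation machinery did not move in one direction. Of 40 initiation and elongation factors 8 were higher and 5 lower (20% and 12.5%), and 2 were lower without *Mtor-cKO* replicates 1 and 4. *Eif4b*, an initiation factor that S6 kinases phosphorylate, had 84.1, 86.7, 87.0 and 84.7 FPKM in *Mtor-cKO* replicates 1 to 4, against 49.4, 52.0, 52.5, 50.3 and 50.5 FPKM in *Mtorfl/fl* replicates 1 to 5 (log2 fold change 0.71, SE 0.07, edgeR adjusted p = 5.02e-06). *Eif3f* ran from 152 to 169 FPKM in *Mtor-cKO*, against 93.8 to 105 FPKM in *Mtorfl/fl* (log2 fold change 0.67, SE 0.07, edgeR adjusted p = 6.55e-06) and *Eef2*, the elongation factor, from 588 to 602 FPKM in *Mtor-cKO*, against 399 to 448 FPKM in *Mtorfl/fl* (log2 fold change 0.46, SE 0.08, edgeR adjusted p = 0.000474). All 3 were higher before injury as well. Of 67 cytosolic ribosomal protein genes 2 passed, both upward, and 8 were higher without *Mtorfl/fl* replicate 5. *Rpl3* had 505, 424, 468 and 480.4 FPKM in *Mtor-cKO* replicates 1 to 4, against 235, 229.7, 255, 239 and 416 FPKM in *Mtorfl/fl* replicates 1 to 5 (log2 fold change 0.75, SE 0.17, edgeR adjusted p = 0.00415), with *Mtorfl/fl* replicate 5 far above the rest of its group, and *Rpl4* ran from 374 to 407 FPKM in *Mtor-cKO*, against 253 to 346 FPKM in *Mtorfl/fl* (log2 fold change 0.40, SE 0.09, edgeR adjusted p = 0.0038). Neither passed without *Mtor-cKO* replicates 1 and 4. Of 39 genes of oxidative phosphorylation 7 were lower and none higher (17.9% lower, against 13.1% of all genes), and 4 were lower in each fit without a doubted pair, with 1 higher without *Mtorfl/fl* replicates 1 and 2. Among the 7 was *Cycs*, cytochrome c (44.6 to 51.4 FPKM in *Mtor-cKO*, against 52.1 to 79.2 FPKM in *Mtorfl/fl*, log2 fold change -0.46, SE 0.09, edgeR adjusted p = 0.00177).

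**Figure D4:**
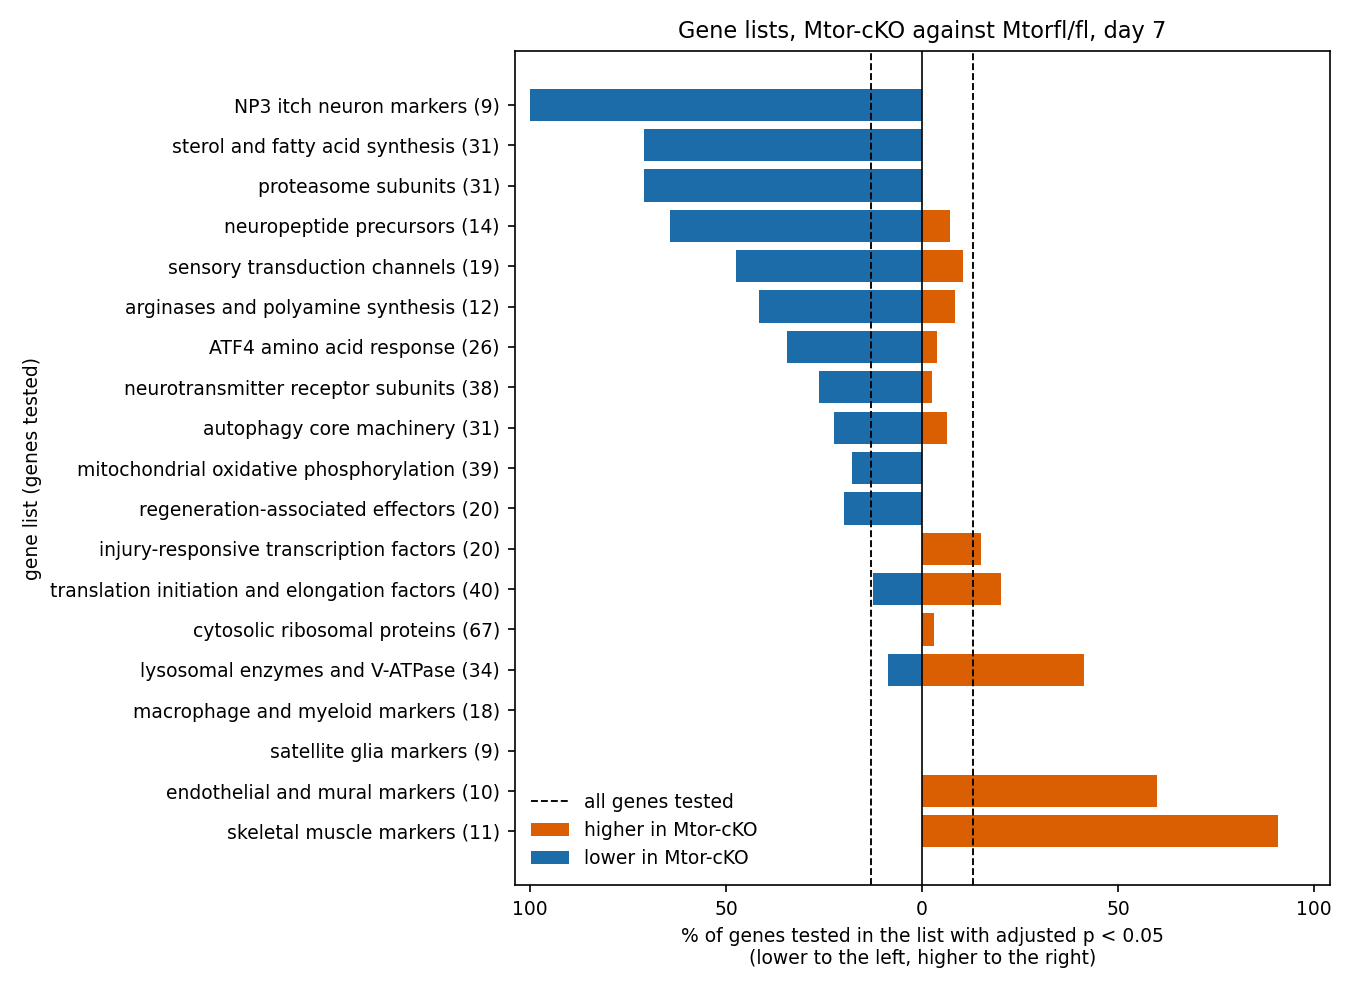
Share of the genes tested in each of 19 lists (rows, number tested in parentheses) that passed an adjusted p of 0.05, lower in *Mtor-cKO* to the left (blue) and higher to the right (orange), in percent. Dashed lines mark all genes tested (13.1% lower and 12.9% higher), and the NP3 itch neuron (100% lower), sterol and proteasome lists (71% lower each) reach furthest to the left. The lists were chosen with earlier results of these data known, so the bars only describe them.

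Of the mTOR pathway, 3 of 13 genes for complex subunits and the TSC brake were lower and 1 higher. *Akt1s1*, which encodes the mTORC1 inhibitor PRAS40, had 40.3, 40.5, 37.9 and 40.4 FPKM in *Mtor-cKO* replicates 1 to 4, against 46.7, 47.5, 49.7, 46.1 and 45.6 FPKM in *Mtorfl/fl* replicates 1 to 5 (log2 fold change -0.27, SE 0.06, edgeR adjusted p = 0.00249). *Tbc1d7*, a subunit of the TSC complex, ran from 18.6 to 20.7 FPKM in *Mtor-cKO*, against 20.9 to 24.5 FPKM in *Mtorfl/fl* (log2 fold change -0.28), and *Tsc1*, another subunit, was higher (6.96 to 7.11 FPKM in *Mtor-cKO*, against 5.06 to 5.70 FPKM in *Mtorfl/fl*, log2 fold change 0.35, SE 0.08, edgeR adjusted p = 0.00469). *Rptor* and *Rictor*, which define the mTORC1 and mTORC2 complexes, did not pass (log2 fold changes 0.23 and 0.26). Of 28 effectors and feedback genes 7 were higher and 4 lower, with 3 and 4 higher without *Mtor-cKO* replicate 2 and replicate 3, 2 higher and 2 lower without *Mtor-cKO* replicates 1 and 4, and 4 higher without *Mtorfl/fl* replicates 1 and 2. *Rps6kb2*, one of the S6 kinases, had 8.28, 7.82, 7.15 and 7.83 FPKM in *Mtor-cKO* replicates 1 to 4, against 12.4, 12.6, 13.1, 12.2 and 14.1 FPKM in *Mtorfl/fl* replicates 1 to 5 (log2 fold change -0.73, SE 0.10, edgeR adjusted p = 6.66e-05), whereas *Rps6kb1* had a log2 fold change of -0.04 and did not pass. *Sesn3*, a sestrin that restrains mTORC1, ran from 4.24 to 5.44 FPKM in *Mtor-cKO*, against 5.87 to 7.21 FPKM in *Mtorfl/fl* (log2 fold change -0.53, SE 0.10, edgeR adjusted p = 0.000968), and *Sesn2* from 1.71 to 1.91 FPKM in *Mtor-cKO*, against 2.09 to 4.49 FPKM in *Mtorfl/fl* (log2 fold change -0.73, SE 0.18, edgeR adjusted p = 0.0082). Without *Mtor-cKO* replicates 1 and 4 *Sesn2* lost its call (edgeR adjusted p = 0.0727). *Fnip2*, a partner of folliculin that acts on the Rag GTPases, is not in these lists and had 4.12, 4.03, 3.65 and 3.70 FPKM in *Mtor-cKO* replicates 1 to 4, against 1.85, 1.68, 2.00, 1.91 and 2.2 FPKM in *Mtorfl/fl* replicates 1 to 5 (log2 fold change 0.97, SE 0.08, edgeR adjusted p = 5.48e-07).

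Some genes that were higher in *Mtor-cKO* were so before injury too, and others followed single libraries. Of the first kind, *Usp11*, a deubiquitinase, had the smallest p-value, at 17.8, 18.8, 18.7 and 17.5 FPKM in *Mtor-cKO* replicates 1 to 4, against 7.68, 7.77, 7.90, 7.30 and 7.33 FPKM in *Mtorfl/fl* replicates 1 to 5 (log2 fold change 1.2, SE 0.07, edgeR adjusted p = 2.71e-08). *Slc5a6*, the carrier of biotin and pantothenate, had 12.2, 11.8, 11.6 and 11.1 FPKM in *Mtor-cKO* replicates 1 to 4, against 5.19, 6.47, 5.39, 5.37 and 5.62 FPKM in *Mtorfl/fl* replicates 1 to 5 (log2 fold change 1.02, SE 0.07, edgeR adjusted p = 6.96e-08). *Islr2*, a membrane protein of growing axons, had 5.93, 6.56, 6.42 and 4.78 FPKM in *Mtor-cKO* replicates 1 to 4, against 1.22, 1.72, 1.73, 1.50 and 1.14 FPKM in *Mtorfl/fl* replicates 1 to 5 (log2 fold change 1.99, SE 0.16, edgeR adjusted p = 6.11e-07). The libraries of each genotype lay close together in these 3 genes, which the choice by small p-values favours. Before injury their log2 fold changes were 1.15, 1.29 and 1.90. *Phyhip*, a brain-enriched protein that interacts with phytanoyl-CoA hydroxylase, had 11.7, 11.7, 12.1 and 10.5 FPKM in *Mtor-cKO* replicates 1 to 4, against 2.21, 3.04, 2.33, 2.71 and 1.46 FPKM in *Mtorfl/fl* replicates 1 to 5 (log2 fold change 2.25, SE 0.21, edgeR adjusted p = 4.01e-06). *Xylb*, xylulokinase, had 2.89, 3.24, 3.08 and 2.96 FPKM in *Mtor-cKO* replicates 1 to 4, against 0.66, 0.61, 1.10, 0.85 and 0.76 FPKM in *Mtorfl/fl* replicates 1 to 5 (log2 fold change 1.87, SE 0.13, edgeR adjusted p = 1.3e-07).

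*Sv2a*, a synaptic vesicle glycoprotein, had 25.0, 28.0, 27.0 and 26.8 FPKM in *Mtor-cKO* replicates 1 to 4, against 13.3, 12.3, 10.1, 11.3 and 7.62 FPKM in *Mtorfl/fl* replicates 1 to 5 (log2 fold change 1.24, SE 0.19, edgeR adjusted p = 0.000265), while of the 32 genes of the synaptic vesicle list 4 were lower and *Sv2a* alone was higher. The 4 that were lower (12.5%, against 13.1% of all genes) became 7 without *Mtorfl/fl* replicate 5, 1 without *Mtor-cKO* replicates 1 and 4 and none without *Mtorfl/fl* replicates 1 and 2, where 2 were higher (4 were lower there at an unadjusted p under 0.05 in edgeR). *Cx3cl1*, the neuronal chemokine fractalkine, ran from 4.14 to 5.27 FPKM in *Mtor-cKO*, against 2.37 to 3.29 FPKM in *Mtorfl/fl* (log2 fold change 0.77, SE 0.09, edgeR adjusted p = 3.04e-05). *Rasgef1b*, an exchange factor for Ras family GTPases, ran from 5.28 to 6.53 FPKM in *Mtor-cKO*, against 2.73 to 3.02 FPKM in *Mtorfl/fl* (log2 fold change 1.04, SE 0.09, edgeR adjusted p = 2.35e-06), and *Gltscr2*, a nucleolar protein of ribosome assembly, from 74.5 to 87.0 FPKM in *Mtor-cKO*, against 43.1 to 51.4 FPKM in *Mtorfl/fl* (log2 fold change 0.79, SE 0.07, edgeR adjusted p = 2.29e-06). Each of these 4 had a baseline adjusted p under 0.05 in the same direction, and none overlapped between the genotypes at day 7 (16.4% of all genes tested lay apart upward).

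**Figure D5:**
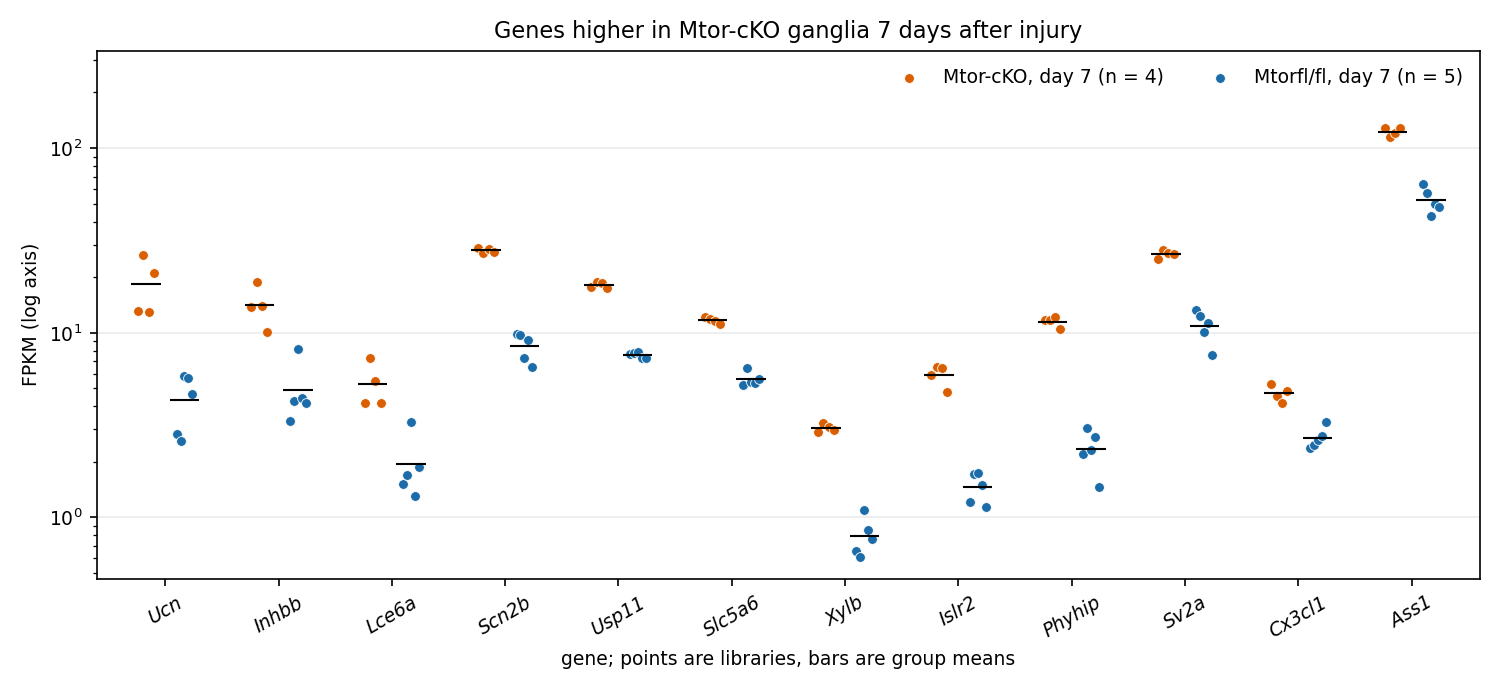
FPKM (log axis) of 12 genes that were higher in *Mtor-cKO*, with 1 point per library, *Mtor-cKO* (4 libraries, orange) left of *Mtorfl/fl* (5 libraries, blue), and bars at the group means. No gene overlaps between the genotypes, and *Usp11* (17.5 to 18.8 FPKM in *Mtor-cKO*, against 7.3 to 7.9 FPKM in *Mtorfl/fl*) varies little within each group. Of all genes tested 16.4% lay apart upward. Many of the 12 were named for a small p-value, which favours such separation and small spread, so both only describe these genes.

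Other genes called higher belong to muscle, cartilage and stroma, and those of muscle and cartilage were highest in single libraries. Of 11 skeletal muscle markers tested 10 were higher, and none was called without *Mtor-cKO* replicate 1 or without either doubted pair. *Ckm*, muscle creatine kinase, had 64.5, 9.26, 7.10 and 4.05 FPKM in *Mtor-cKO* replicates 1 to 4, against 1.14, 1.84, 0.11, 3.95 and 0.95 FPKM in *Mtorfl/fl* replicates 1 to 5 (log2 fold change 3.66, SE 1.14, edgeR adjusted p = 0.0262), and *Actn3*, a fast-fibre actinin, had 10.6, 1.54, 1.65 and 0.90 FPKM in *Mtor-cKO* replicates 1 to 4, against 0.46, 0.37, 0.37, 0.86 and 0.53 FPKM in *Mtorfl/fl* replicates 1 to 5 (log2 fold change 2.77, SE 0.81, edgeR adjusted p = 0.0195). *Mtor-cKO* replicate 1 was far above every other day 7 library in both. The other muscle genes followed it, among them *Mybpc2* (log2 fold change 3.04), *Tcap* (3.22), *Tnnc2* (3.40), *Myoz1* (3.47), *Myot* (3.75), *Atp2a1* (3.87) and *Myh4* (4.07). No muscle marker had an unadjusted p under 0.05 in edgeR without that library or without *Mtor-cKO* replicates 1 and 4, and 10 had without *Mtorfl/fl* replicates 1 and 2. The gene with the largest fold of all those called higher was *Clec3a*, a cartilage lectin, which was at 0, 0, 0.02 and 4.49 FPKM in *Mtor-cKO* replicates 1 to 4 and at most 0.04 FPKM in *Mtorfl/fl*. Its high library was that of *Col2a1*, and neither gene passed in DESeq2 or without that library. Muscle and cartilage content cannot be told apart from genotype in these genes.

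Of 10 endothelial and mural markers 6 were higher, at a summed level of 111 to 128 FPKM in *Mtor-cKO* and 77.4 to 123 FPKM in *Mtorfl/fl*, and 1 was higher in each fit without a doubted pair, where 6 still had an unadjusted p under 0.05. *Cdh5*, the cadherin of endothelial junctions, ran from 11.7 to 14.1 FPKM in *Mtor-cKO*, against 5.60 to 10.1 FPKM in *Mtorfl/fl* (log2 fold change 0.81, SE 0.21, edgeR adjusted p = 0.0105), and *Pecam1* from 9.88 to 12.6 FPKM in *Mtor-cKO*, against 4.98 to 7.42 FPKM in *Mtorfl/fl* (log2 fold change 0.82, SE 0.22, edgeR adjusted p = 0.0137). *Cnn1*, a smooth muscle calponin, ran from 2.33 to 4.83 FPKM in *Mtor-cKO*, against 0.22 to 1.03 FPKM in *Mtorfl/fl* (log2 fold change 2.37, SE 0.67, edgeR adjusted p = 0.0168). *Cdh5* and *Pecam1* lost their calls in both fits without a doubted pair, with log2 fold changes of 0.66 to 0.97 and 0.71 to 0.88 over all alternatives, and *Cnn1* lost its call without *Mtor-cKO* replicate 2 (edgeR adjusted p = 0.0505) and without *Mtorfl/fl* replicates 1 and 2 (0.0754). Fibroblast markers summed to 692 to 775 FPKM in *Mtor-cKO* and 290 to 705 FPKM in *Mtorfl/fl*, and 2 of 8 were higher, with 1 higher without *Mtor-cKO* replicate 3 or *Mtor-cKO* replicates 1 and 4. *Fbln1*, an extracellular matrix protein, ran from 8.13 to 13.4 FPKM in *Mtor-cKO*, against 2.85 to 7.52 FPKM in *Mtorfl/fl* (log2 fold change 1.15, SE 0.28, edgeR adjusted p = 0.00779), *Pdgfra* from 4.09 to 5.45 FPKM in *Mtor-cKO*, against 1.85 to 3.45 FPKM in *Mtorfl/fl* (log2 fold change 0.86) and *Sfrp2*, a secreted Wnt modulator, from 1.16 to 3.34 FPKM in *Mtor-cKO*, against 0.16 to 0.73 FPKM in *Mtorfl/fl* (log2 fold change 2.55, SE 0.61, edgeR adjusted p = 0.006). Without *Mtorfl/fl* replicates 1 and 2, the libraries lowest in stroma, none of the 8 was higher in edgeR, with 2 at an unadjusted p under 0.05. The part of cell composition in these results was not tested.

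*Zbtb16*, a zinc finger factor, and *Fkbp5*, a co-chaperone of steroid receptors, had 4.64, 5.40, 6.47 and 0.86 FPKM in *Mtor-cKO* replicates 1 to 4, against 0.63, 0.60, 0.40, 0.48 and 0.73 FPKM in *Mtorfl/fl* replicates 1 to 5 for *Zbtb16* (log2 fold change 2.90, SE 0.71, edgeR adjusted p = 0.0071) and 23.4, 27.8, 26.1 and 12.3 FPKM in *Mtor-cKO* replicates 1 to 4, against 10.8, 11.1, 10.3, 10.4 and 9.28 FPKM in *Mtorfl/fl* replicates 1 to 5 for *Fkbp5* (log2 fold change 1.07, SE 0.25, edgeR adjusted p = 0.00549). In both, *Mtor-cKO* replicates 1 to 3 were high and replicate 4 was nearer to *Mtorfl/fl*. Neither passed at baseline, where *Zbtb16* was high in single libraries of both genotypes (3.28 FPKM in *Mtor-cKO* replicate 4, against 4.74 and 6.84 FPKM in *Mtorfl/fl* replicates 3 and 4). *Pck1*, of gluconeogenesis, and *Plin4*, a lipid droplet protein, ran from 0.73 to 2.29 FPKM in *Mtor-cKO*, against 0.02 to 0.71 FPKM in *Mtorfl/fl* and from 0.72 to 2.06 FPKM in *Mtor-cKO*, against 0.07 to 0.48 FPKM in *Mtorfl/fl*, with edgeR adjusted p of 0.0283 and 0.013. *Plin4* lost its call without *Mtorfl/fl* replicates 1 and 2, and *Pck1* lost its call in 7 of 18 alternatives, namely without either doubted pair and without any one of *Mtor-cKO* replicates 1 to 3 or *Mtorfl/fl* replicates 1 and 2. Of 7 adipocyte markers none passed in edgeR or DESeq2, with 1 and 2 at an unadjusted p under 0.05, and their median log2 fold change was 1.82. With day 7 libraries fitted alone 2 of the 7 were higher and without *Mtorfl/fl* replicate 4 the number was 3. Interferon-stimulated genes summed to 238 to 578 FPKM in *Mtor-cKO* and 150 to 288 FPKM in *Mtorfl/fl*, and 4 of 14 were higher (median 0.92), with 1 higher without *Mtor-cKO* replicates 1 and 4 and 2 without *Mtorfl/fl* replicates 1 and 2. *Gbp2*, a guanylate-binding protein, had 27.2, 11.2, 15.04 and 22.9 FPKM in *Mtor-cKO* replicates 1 to 4, against 4.08, 5.97, 9.57, 7.09 and 8.62 FPKM in *Mtorfl/fl* replicates 1 to 5 (log2 fold change 1.41, SE 0.33, edgeR adjusted p = 0.00571), and *Ifit2* ran from 13.3 to 19.5 FPKM in *Mtor-cKO*, against 9.96 to 12.7 FPKM in *Mtorfl/fl* (log2 fold change 0.50, SE 0.10, edgeR adjusted p = 0.00188). *Ifit2* kept its call in every alternative, *Gbp2* lost its call without *Mtor-cKO* replicates 1 and 4, and *Ifit3* in 9 of 18 alternatives.

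None of 9 satellite glia markers, none of 18 macrophage and myeloid markers and none of 9 lymphocyte and neutrophil markers passed in edgeR, with 2, 1 and 2 at an unadjusted p under 0.05 and median log2 fold changes of 0.14, 0.32 and -0.28. DESeq2 called 1 lymphocyte and neutrophil marker and none of the others. Among satellite glia markers 2 were higher without *Mtorfl/fl* replicate 5. Of lymphocyte and neutrophil markers 1 was higher without *Mtor-cKO* replicate 3, and 1 was lower without *Mtor-cKO* replicate 4 or replicates 1 and 4. *Cd163*, a scavenger receptor of resident macrophages, ran from 2.63 to 5.36 FPKM in *Mtor-cKO*, against 1.02 to 2.65 FPKM in *Mtorfl/fl* (log2 fold change 1.26, SE 0.52, edgeR adjusted p = 0.0851), and was the 1 macrophage marker that passed with day 7 libraries fitted alone. Macrophage markers summed to 351 to 615 FPKM in *Mtor-cKO* and 192 to 626 FPKM in *Mtorfl/fl*. Of 15 Schwann cell myelin genes 1 was higher (3 without *Mtorfl/fl* replicate 5), *Egr2*, the transcription factor of myelination, which ran from 6.62 to 7.71 FPKM in *Mtor-cKO*, against 2.67 to 5.40 FPKM in *Mtorfl/fl* (log2 fold change 0.82, SE 0.21, edgeR adjusted p = 0.01) and lost its call in both fits without a doubted pair. The cytokine *Il1b* was low in both genotypes (0.48 to 0.99 FPKM in *Mtor-cKO*, against 0.35 to 1.76 FPKM in *Mtorfl/fl*, log2 fold change -0.88, edgeR adjusted p = 0.142).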

How the data were processed

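RNA was taken from whole DRGs with a column kit and sequenced on a BGISEQ-500. Per the submitters' processing notes the authors used HISAT2 2.0.4, Bowtie2 2.2.5 and RSEM 1.2.12. Expected counts and FPKM per gene were deposited separately. The notes name mm9 and the study's methods GRCm38.p5, and no coordinates were taken from the files. The deposited expected counts are RSEM estimates, of which 34.2% are not whole. They were rounded and fitted over all 17 libraries with 4 groups in edgeR 4.0.16 (TMM, quasi-likelihood F test, Benjamini-Hochberg) in R 4.3.3. The deposited FPKM values, normalized by the authors for length and depth, set the filter (a group mean of at least 1) and are the levels printed. Standard errors are the log2 fold change divided by the root of F. Replicates are separate mice.

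The members and gene lists were chosen with earlier results of these data known. Genes named are *Mtor*, genes the study names, the 15 largest called changes without overlap and the 10 smallest p-values in each direction, up to 4 genes with the smallest p-values of each list, and the 5 smallest interaction p-values among called genes. A few genes that this rule names are not reported here. Outside that rule, *Nppb*, *Htr1f*, *Cysltr2*, *Asic3*, *Trpa1*, *Trpm8*, *Slc7a11*, *Fkbp5*, *Col2a1*, *Clec3a*, *Pvalb*, *Hmgcs1* and the list members named as not passing were chosen after their values were seen. The 1 entry without a name, which held 0% of the counts, was left out. A further 11 symbols that had the form of a date or were duplicated were mended, and 8 columns of no deposited sample were not used. Libraries held 17060876 to 21076542 expected counts. Alternatives were DESeq2 1.42.0, RLE factors, no filter, filterByExpr, the filter over all 4 groups, day 7 libraries only, the replicate number as a block, each day 7 library left out, and both doubted pairs left out. Promoters came from RefSeq (GRCm38.p6), and 99.74% of the genes tested matched it. Tables were built in pandas 2.3.3 and NumPy 2.4.6 under Python 3.11.15 and plots drawn in Matplotlib 3.10.9. The tests were checked on data with known changes.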

Additional observations from a re-analysis of the deposited data

Results flagged for a closer look

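In 51 of 372 groups of 4 or 5 day 7 libraries looked at (named genes and marker sums), 1 library lay apart from the rest of its group by Dixon's criterion at the 95% level. Chance alone gives about 1 in 20, or 18.6 here. The flags gathered in a few libraries.

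*Mtorfl/fl* replicate 3 was high in *Npy* (332 FPKM), *Sprr1a* (1641), *Gap43* (538.6), *Atf3* (227.1), *Gpr151* (52.43), *Hsd17b7* (46.53), *Mthfd2* (27.82), *Fst* (16.78), *Tmem88b* (9.65), *Lipn* (8.73), *Inhbb* (8.19), *Arg2* (7.11), *Anxa10* (6.74), *Speer1* (5.53), *Sesn2* (4.49) and *Gm7972* (1.77 FPKM), and low in *Gm765* (69.03) and *Htr1a* (1.39 FPKM). *Mtorfl/fl* replicate 5 was high in *Rpl3* (415.6), *Tac1* (363.8), *Htatip2* (48.62), *Nppb* (40.59) and *Inha* (3.54 FPKM) and in the sums of satellite glia (4191) and peptidergic nociceptor markers (2456 FPKM), and low in *Npy2r* (9.13) and in the pan-neuronal sum (6247 FPKM). *Mtorfl/fl* replicate 4 was high in *Myh4* (1.59 FPKM).

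*Mtor-cKO* replicate 1 was high in *Pvalb* (112.2), *Tnnc2* (64.54), *Ckm* (64.49), *Atp2a1* (47.87), *Myh4* (28.64), *Tcap* (10.99), *Actn3* (10.64), *Myoz1* (7.12) and *Mybpc2* (5.46 FPKM) and in the muscle sum (512 FPKM), and low in *BC048546* (6.9 FPKM). *Mtor-cKO* replicate 4 was high in *Tm7sf2* (26.92), *Col2a1* (18.27), *Nppb* (12.44), *Clec3a* (4.49), *P2rx2* (1.67) and *Il31ra* (0.9 FPKM), and low in *Eef2* (588.4) and *Pck1* (0.73 FPKM). *Mtor-cKO* replicate 2 was low in *Cd55* (56.77 FPKM) and in the endothelial and mural sum (110.9 FPKM), and replicate 3 was low in *Akt1s1* (37.94 FPKM) and the one library with *Prr32* (0.04 FPKM).

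For *Lce6a* the genotype effect differed between day 7 and baseline, by 3.319 on the log2 scale (edgeR interaction, adjusted p = 0.0309). The adjusted p was above 0.05 in 10 of 16 alternatives, both fits without a doubted pair among them.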

How the results depend on the processing

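The counts of genes called higher (152) and lower (161) were 230 and 381 with no filter on low values, and 289 genes were called lower with filterByExpr, which tests more low genes. Leaving out 1 library gave 91 to 197 and 154 to 167. Without *Mtor-cKO* replicates 1 and 4, a choice made after seeing the data, 83 were called higher, and 765 were higher and 853 lower at the adjusted p alone. Without *Mtorfl/fl* replicates 1 and 2, also chosen after seeing the data, 85 were called higher and 1144 were lower at the adjusted p alone. At the adjusted p alone, leaving out 1 library gave 1199 to 2001 higher and 1304 to 2030 lower. The 204 genes called at baseline were 346 with no filter and 312 with filterByExpr (198 to 209 leaving out 1 library). The 11 genes with an interaction were 257 with DESeq2, 5 with filterByExpr, 0 without *Mtor-cKO* replicates 1 and 4 (none in edgeR), 1 without *Mtorfl/fl* replicates 1 and 2, and 1 to 138 leaving out 1 library. The cause of these shifts was not tested. Over 168 genes named in the text, 2834 values under the alternatives kept their side of the threshold, 173 lost their call and 11 gained one. Direction was compared only for genes that had passed before any alternative, and 4 of their values reversed. These were of *Col2a1* (a log2 fold change of -0.21 without *Mtor-cKO* replicate 4 and -0.40 without replicates 1 and 4, and up to 3.79 without another library) and *Clec3a* (-0.74 and -0.30, and up to 7.40). Genes that had not passed could also change sign, such as *Atf3* (log2 fold changes from -0.184 to 0.322).

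Same-numbered libraries were not taken as pairs, since in no pair of groups did all 4 numbers correlate above 0.1 in their deviations from the group means. The correlations were -0.36, -0.04, -0.11 and -0.27 for *Mtor-cKO* and *Mtorfl/fl* at day 7, and ranged between -0.11 and 0.64 for the genotypes at baseline, -0.45 and -0.07 for *Mtor-cKO* at day 7 and baseline, and 0.08 and 0.61 for *Mtorfl/fl* at day 7 and baseline. In this last pair of groups 3 of the 4 numbers were above 0.1. Whether same-numbered libraries shared their handling was not tested. With the replicate block, 243 genes were called higher, 165 lower, and 161 had an interaction. Among list members, 14 ribosomal protein genes (2 without the block), 5 fibroblast (2), 5 adipocyte (0), 4 Schwann cell (1), 3 satellite glia (0) and 1 macrophage marker (0) were higher with the block, and 1 satellite glia marker was lower.

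Depth was similar in all libraries, and genes near 1 FPKM rest on low counts.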
